A study of Arabidopsis thaliana with 8 samples.

Results

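The 9 *TOPP* genes of Arabidopsis and 1 gene beside *TOPP4* are described here: *TOPP1* to *TOPP9*, which encode the catalytic subunits of type one protein phosphatase (PP1), and AT2G39850, the next gene after *TOPP4* on chromosome 2, which encodes a subtilisin-like serine protease. They were taken by locus name, 10 of the 28496 genes in the table of counts, and all 10 passed the filter on low counts that kept 20382 genes. *TOPP4* and AT2G39850 were chosen because their transcripts were strongly reduced in seedlings overexpressing *TT2*, so their values in that line are given as a description and were not tested. The open question was whether the other 8 *TOPP* genes differed between genotypes.

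Whole seedlings of the accession Col-0 were compared with 2 transgenic genotypes made in it. *TT2* OE expresses the MYB factor TRANSPARENT TESTA 2 and *MYB5* OE the related factor MYB5, both from the constitutive CaMV 35S promoter. All seedlings were 6 days old and grew unstressed in vitro on half-strength MS agar at 22 °C under an 8 h photoperiod. There were 3 libraries of Col-0, 3 of *TT2* OE and 2 of *MYB5* OE, and total counts ran from 35496351 to 48428855 per library. Several independent lines of each overexpressor existed, and which of them was sequenced is not given in the sources used here. If all *TT2* OE libraries came from 1 line, what belongs to that line and what belongs to the overexpressed factor cannot be told apart.

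PP1 is a metal-dependent serine/threonine phosphatase of the PPP family. Its catalytic subunit acts together with regulatory proteins that set its location and substrates, and small inhibitor proteins such as inhibitor-2 and inhibitor-3 (INH3) hold it in check. Plants have a family of closely similar catalytic subunits. In Arabidopsis, TOPP4 is known to dephosphorylate the DELLA proteins RGA and GAI, repressors of gibberellin responses, and to act on the light-signalling factor PIF5. Subtilisin-like proteases are mostly secreted enzymes that cleave proteins in the cell wall space and in the secretory pathway.

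The similarity of the 9 genes matters for counting reads, and it is shown here by the 48 coding bases around the codons of the asparagine-histidine-glutamate motif, which holds the catalytic metal in PPP phosphatases. They were read from the RefSeq copy of the TAIR10.1 genome, in the coding direction, and each lies within 1 exon. Bases that differ from *TOPP4* are in capitals.
TOPP4: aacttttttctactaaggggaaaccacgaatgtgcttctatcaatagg
TOPP1: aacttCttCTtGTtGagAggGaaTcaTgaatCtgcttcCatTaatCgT
TOPP2: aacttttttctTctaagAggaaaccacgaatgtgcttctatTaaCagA
TOPP3: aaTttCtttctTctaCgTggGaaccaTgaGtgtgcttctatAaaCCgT
TOPP5: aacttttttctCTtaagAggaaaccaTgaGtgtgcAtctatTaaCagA
TOPP6: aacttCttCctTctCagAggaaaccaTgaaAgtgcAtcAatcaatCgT
TOPP7: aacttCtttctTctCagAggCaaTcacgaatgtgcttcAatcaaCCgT
TOPP8: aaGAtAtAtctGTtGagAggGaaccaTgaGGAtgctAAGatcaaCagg
TOPP9: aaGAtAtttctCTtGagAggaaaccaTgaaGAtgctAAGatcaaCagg
In this stretch *TOPP2* differed from *TOPP4* at 5 bases and *TOPP8* at 17, the fewest and the most of the family. Over the whole coding sequence *TOPP4* shared from 68.77% of aligned bases with *TOPP9* to 76.02% with *TOPP2*, whereas *TOPP2* and *TOPP5* shared 87.86% and *TOPP8* and *TOPP9* 86.73%. The longest run of identical exon bases between *TOPP4* and another *TOPP* gene was 32 (with *TOPP5*). No stretch of 50 exon bases of *TOPP4*, AT2G39850 or any other member occurred in the exons of another annotated gene, except in *TOPP9*, where 150 of 2531 such stretches occurred in AT3G01655 as well.

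*TOPP4* (AT2G39840) lies at chr2:16627216-16629412 and AT2G39850 at chr2:16630411-16634253 (TAIR10.1), both on the forward strand with 998 bases between them. The 250 bases before each annotated transcription start are shown because both transcripts were low in the same libraries. Capitals mark matches, on either strand, to the site II element (ATGGGCC or ATGGGCT or TTGGGCC or TTGGGCT), the element through which the study selected TT2 and MYB5, and to AC-rich MYB elements (ACCAAA or ACCTAA or ACCAAC or ACCTAC).
TOPP4, chr2:16626966-16627215, forward strand: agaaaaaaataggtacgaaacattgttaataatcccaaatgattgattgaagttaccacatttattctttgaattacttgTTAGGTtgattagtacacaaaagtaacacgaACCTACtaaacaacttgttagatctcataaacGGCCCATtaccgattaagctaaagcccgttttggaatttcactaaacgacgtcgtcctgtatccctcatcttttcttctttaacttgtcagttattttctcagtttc
AT2G39850, chr2:16630161-16630410, forward strand: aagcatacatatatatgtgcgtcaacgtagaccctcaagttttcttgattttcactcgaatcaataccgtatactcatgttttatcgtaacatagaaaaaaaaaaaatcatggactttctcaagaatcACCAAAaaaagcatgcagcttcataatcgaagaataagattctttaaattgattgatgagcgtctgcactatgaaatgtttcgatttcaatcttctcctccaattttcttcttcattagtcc
The *TOPP4* window held 1 site II element and 2 AC-rich elements, and none of the 3 matches overlapped. Counts of AC-rich elements cover only the forms listed above. The study's form also allows C as its first base, as in the unmarked cccaaa of this window. The AT2G39850 window held 1 AC-rich element and no site II element. Site II elements were present in 17.48% and AC-rich elements in 51.46% of 26697 windows of this length before annotated genes. Among the other *TOPP* genes, the window of *TOPP1* held 2 site II elements and the others held none.

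The labels were first checked by the transgenes. *TT2* was at 466 to 516 CPM (counts scaled to library size with TMM factors) in *TT2* OE and at most 0.316 CPM in the other libraries, and *MYB5* was at 252 to 281 CPM in *MYB5* OE and at most 0.150 CPM elsewhere. Leaf and root transcripts were both present in every library, as labelled for whole seedlings: the Rubisco gene *RBCS1A* was at 8951 to 16460 CPM and the root endodermis gene *CASP1* at 28.2 to 38.3 CPM. The libraries also fell into 3 sets that the labels do not name. Clustering on all tested genes placed replicate 1 of each genotype in set 1, replicate 2 of each in set 2, and replicate 3 of Col-0 and *TT2* OE in set 3. Residuals after genotype had correlations of at least 0.733 within sets and at most 0.255 between them. Each comparison is therefore given from 2 models, one with genotype alone and one that also holds the set. Replicate numbers below follow accession order and are names only. The study's text describes the libraries as independent biological replicates, and the labels add nothing on how the plants were grown or handled apart.

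*TOPP4* transcripts were reduced to a low residue in *TT2* OE. Its level in Col-0 replicates 1, 2 and 3 was 21.1, 20.7 and 15.4 CPM, and in the *MYB5* OE replicates it was 23.2 and 16.5 CPM. In *TT2* OE it was 1.76, 0.953 and 1.22 CPM, from 82, 36 and 45 counts. Every *TT2* OE library was below every other library. Against Col-0 alone, 2.71% of all tested genes were lower in *TT2* OE without overlap. The mean in *TT2* OE was 6.89% of that in Col-0 (SD 2.17 over the 3 *TT2* OE libraries), which is 14.5-fold lower. From the summed counts, 163 against 2517, the share was 7.10% with a 95% exact (Clopper-Pearson) interval of 6.03% to 8.32%, which covers counting error only. In a whole seedling, fewer cells that express a gene and less RNA per cell cannot be told apart.

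AT2G39850 was closer to absence than *TOPP4*. Its level in Col-0 replicates 1, 2 and 3 was 9.71, 25.5 and 15.1 CPM, and in *MYB5* OE 7.66 and 25.4 CPM. The *TT2* OE libraries held 1, 1 and 4 counts, or 0.0215, 0.0265 and 0.108 CPM. The 2 libraries with 1 count lie under the floor of 3 counts per library. The mean in *TT2* OE was 0.311% of that in Col-0 (SD 0.291 over the 3 *TT2* OE libraries), and without *TT2* OE replicate 3 it was 0.143%. Summed over libraries, *TT2* OE had 6 counts against 2303 in Col-0, a share of 0.286% (95% exact interval 0.105% to 0.623%, counting error only).

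**Figure D1:**
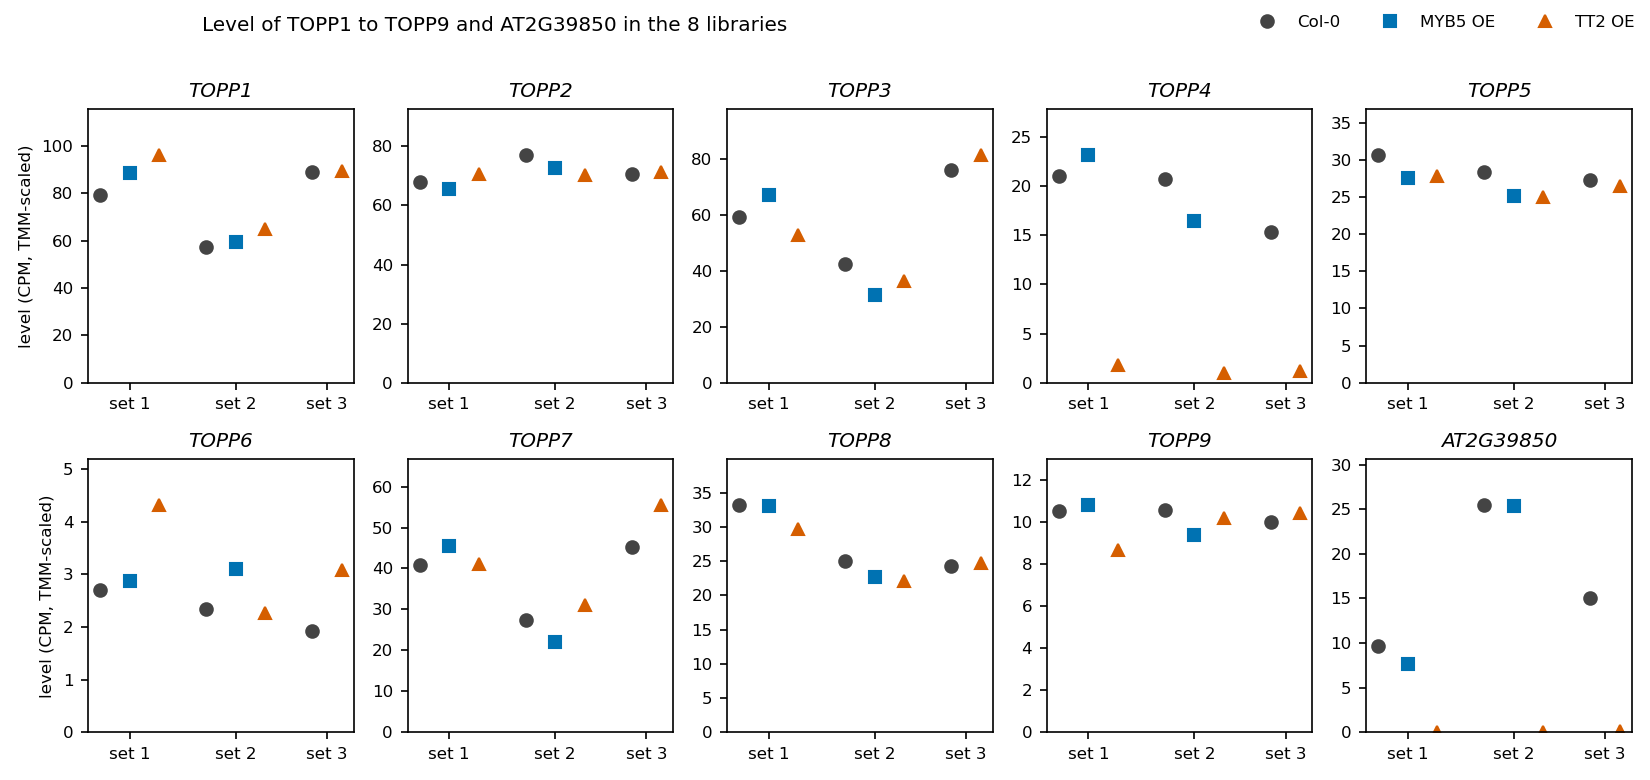
Level of each gene in the 8 libraries, in TMM-scaled CPM on axes that start at 0, with 1 point per library, the libraries arranged by set and the symbols giving genotype. *TOPP4* at 0.953 to 1.76 CPM and AT2G39850 at 0.0215 to 0.108 CPM in *TT2* OE stand apart, while in the other panels, *TOPP6* in *MYB5* OE excepted, the libraries of each overexpressor overlap those of Col-0.

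None of the other 8 *TOPP* genes passed the test in *TT2* OE against Col-0, in either model. With genotype alone, 0 of 8 were called at an adjusted p under 0.05 (edgeR quasi-likelihood test, Benjamini-Hochberg over all genes), and 0 of 8 had an unadjusted p under 0.05. That model called 2 of 20382 genes, or 0.00981%, so a count of 0 is also what the background gives. With the set term it was again 0 of 8 on both thresholds, where 1.41% of all genes were called. The share of all genes with an unadjusted p under 0.05 was 1.51% with genotype alone and 12.8% with the set term. Counts of 0 of 8 are therefore near the background on that threshold too. DESeq2 and the likelihood ratio test also called 0 of 8. The log2 ratios ran from -0.12 to 0.47 with genotype alone, with a median of -0.04 beside 0.00 over all genes.

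*TOPP1* (AT2G29400), the most abundant member, was at 79.2, 57.4 and 89.2 CPM in Col-0 and at 96.2, 64.7 and 89.3 CPM in *TT2* OE. The ranges overlapped, and the log2 ratio was 0.15 (95% interval -0.45 to 0.74) with genotype alone and 0.15 (-0.03 to 0.34) with the set term. Within sets it was 0.28, 0.17 and 0.00, so no library of *TT2* OE was below Col-0 of its own set, but the adjusted p was 0.507 with the set term in edgeR. *TOPP2* (AT5G59160) was the steadiest of the abundant genes, at 68.0, 77.1 and 70.6 CPM in Col-0 and 70.7, 70.5 and 71.4 CPM in *TT2* OE. The interval of its log2 ratio was -0.35 to 0.31 with genotype alone and -0.20 to 0.16 with the set term. *TOPP5* (AT3G46820), the gene most similar to *TOPP2* in sequence, was at 30.7, 28.4 and 27.3 CPM in Col-0 and 27.9, 25.1 and 26.6 CPM in *TT2* OE. It was lower in *TT2* OE in each of the 3 sets. The log2 ratio was -0.12 (-0.31 to 0.07) in the set-term model, with an adjusted p of 0.635 in edgeR. With genotype alone the interval was -0.43 to 0.20.

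*TOPP3* (AT1G64040) and *TOPP7* (AT4G11240), which share 78.57% of their aligned coding bases, varied more between libraries than between genotypes. *TOPP3* was at 59.5, 42.4 and 76.2 CPM in Col-0 and 52.8, 36.5 and 81.6 CPM in *TT2* OE. Its log2 ratio was -0.10 (-0.36 to 0.16) in the set-term model and -0.06 (-0.98 to 0.86) with genotype alone. *TOPP7* was at 40.8, 27.5 and 45.4 CPM in Col-0 and 41.1, 31.0 and 55.6 CPM in *TT2* OE. It was higher in *TT2* OE in each of the 3 sets, by 0.01, 0.17 and 0.29 on the log2 scale. The fitted ratio of 0.16 (-0.09 to 0.41) with the set term did not pass the test (adjusted p 0.626 in edgeR). With genotype alone it was 0.17 (-0.63 to 0.96).

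*TOPP8* (AT5G27840) and *TOPP9* (AT3G05580), the 2 members furthest from *TOPP4* in sequence, gave log2 ratios near 0. *TOPP8* was at 33.2, 25.1 and 24.3 CPM in Col-0 and 29.7, 22.1 and 24.7 CPM in *TT2* OE. Its log2 ratio was -0.11 (-0.31 to 0.09) with the set term and -0.11 (-0.62 to 0.40) with genotype alone. *TOPP9* was at 10.55, 10.58 and 10.03 CPM in Col-0 and 8.67, 10.2 and 10.5 CPM in *TT2* OE. Its log2 ratio was -0.09 (-0.35 to 0.17) with the set term and -0.09 (-0.45 to 0.28) with genotype alone. *TOPP9* had the smallest spread of any member in Col-0 (10.4 ± 0.311 CPM, SD, n = 3).

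*TOPP6* (AT5G43380), the least abundant member, had the largest ratio of the 8. It was at 2.71, 2.35 and 1.92 CPM in Col-0, 2.88 and 3.10 CPM in *MYB5* OE, and 4.33, 2.28 and 3.09 CPM in *TT2* OE. The *TT2* OE libraries overlapped those of Col-0, with replicate 2 inside the Col-0 range and the other two above it. The log2 ratio of *TT2* OE to Col-0 was 0.47 (-0.18 to 1.13) with genotype alone and 0.46 (-0.01 to 0.93) with the set term, its unadjusted p being 0.0524 and the adjusted p 0.398 in edgeR. Both *MYB5* OE libraries were above all 3 of Col-0, a pattern that 3.9% of all tested genes had, and the log2 ratio of 0.36 (-0.37 to 1.09) was not called. The whole gene rests on 306 counts over the 3 Col-0 libraries, the fewest among the *TOPP* genes.

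**Figure D2:**
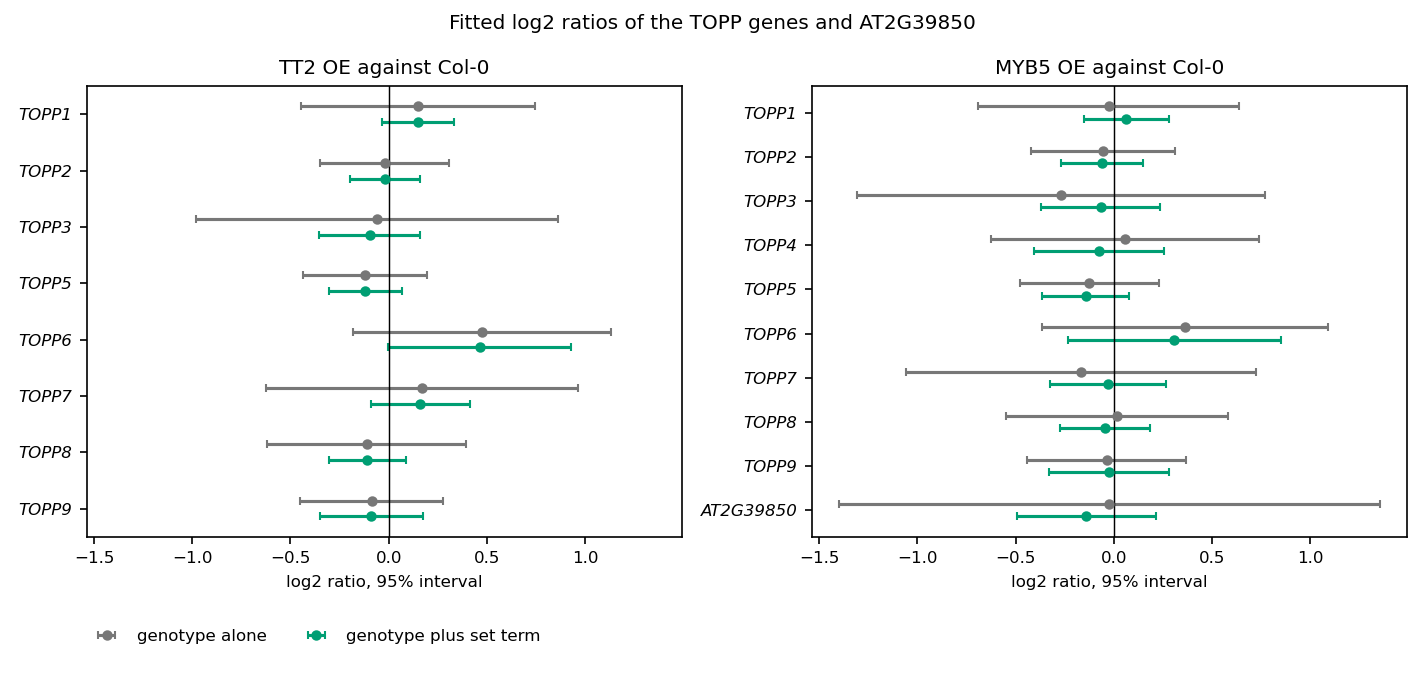
Fitted log2 ratios with 95% intervals from edgeR, *TT2* OE against Col-0 on the left and *MYB5* OE against Col-0 on the right, in grey from genotype alone and in green with the set term. Every interval spans 0, and the set term narrows them, as for *TOPP3* in *TT2* OE from -0.98 to 0.86 down to -0.36 to 0.16; *TOPP4* and AT2G39850 are left out on the left because they were chosen for that difference.

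In *MYB5* OE neither gene of the locus differed from Col-0 by more than the spread between libraries. In this comparison, which uses the same Col-0 libraries, the log2 ratio of *TOPP4* was 0.06 (95% interval -0.62 to 0.74) with genotype alone and -0.08 (-0.41 to 0.26) with the set term. That of AT2G39850 was -0.02 (-1.40 to 1.36) and -0.14 (-0.49 to 0.22). Of the 10 genes, 0 were called by edgeR in either model, beside 0.00491% and 0.167% of all genes, and 0 by DESeq2 or the likelihood ratio test. None of the 8 other *TOPP* genes had an unadjusted p under 0.05 in either model, beside 1.04% and 8.26% of all genes. The ratio furthest from 0 with the set term was that of *TOPP6* (0.31, -0.24 to 0.85). Set directly against *MYB5* OE, *TT2* OE had 0 of these 8 genes called in either model, with log2 ratios from -0.13 to 0.33 with genotype alone, beside 0.0147% of all genes called. With the set term they ran from -0.06 to 0.19, beside 0.172%.

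*TOPP4* was a minor part of the family to begin with. To compare genes, CPM was divided by annotated exon length. In Col-0 the mean level was 50.7 CPM per kb for *TOPP1*, 35.8 for *TOPP2*, 34.1 for *TOPP3*, 25.7 for *TOPP7*, 17.3 for *TOPP5*, 14.1 for *TOPP8*, 11.8 for *TOPP4*, 4.03 for *TOPP9* and 1.145 for *TOPP6*. *TOPP2* and *TOPP3* overlapped over the 3 libraries, as did *TOPP3* and *TOPP7*, *TOPP5* and *TOPP8*, and *TOPP8* and *TOPP4*, so the ranges of these neighbours in the order were not separate. The genes share libraries, however, and within them *TOPP3* was above *TOPP7* and *TOPP5* above *TOPP8* in 3 of 3, *TOPP8* above *TOPP4* in 2 of 3 and *TOPP2* above *TOPP3* in 1 of 3. AT2G39850, at 6.22 CPM per kb, lay between *TOPP4* and *TOPP9* and overlapped the latter.

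The summed level of the 9 *TOPP* genes was 203, 168 and 213 CPM per kb in Col-0, 215 and 151 in *MYB5* OE, and 197, 153 and 215 in *TT2* OE. *TOPP4* made up 6.47%, 7.67% and 4.49% of this sum in the Col-0 libraries, 6.71% and 6.78% in *MYB5* OE, and 0.558%, 0.388% and 0.353% in *TT2* OE. Without *TOPP4* the sum was 183 ± 24.9 CPM per kb in Col-0 (SD, n = 3) and 187 ± 31.9 in *TT2* OE (SD, n = 3), with overlapping libraries. The order of abundance was the same in *TT2* OE as in Col-0 for the first 6 genes, from *TOPP1* at 29.8% of the sum to *TOPP8* at 6.92%. *TOPP4*, at 0.434%, was below *TOPP6* at 0.845%.

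**Figure D3:**
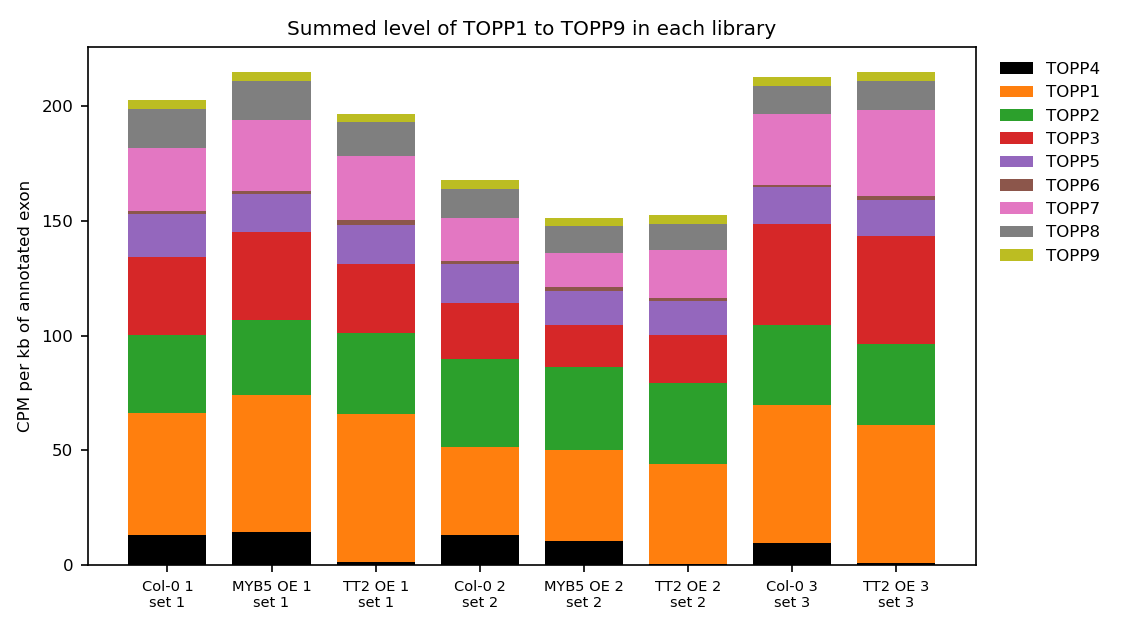
Stacked bars of CPM per kb of annotated exon for *TOPP1* to *TOPP9* in each library, with *TOPP4* in black at the base. The black segment takes 4.49% to 7.67% of the bar in Col-0 and *MYB5* OE and at most 0.558% in *TT2* OE, and set 2 has the lowest bars, at 151 to 168.

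Differences between sets of libraries exceeded those between genotypes for several of these genes. *TOPP3* had a mean of 59.8 CPM in set 1, 36.7 in set 2 and 78.9 in set 3, and *TOPP7* of 42.4, 26.9 and 50.5 CPM. *TOPP1* followed with 88.0, 60.5 and 89.2 CPM. In each of these the highest library of set 2 was below every library of the other sets. By contrast *TOPP2*, *TOPP5* and *TOPP9* differed by at most 1.095-fold between set means. Over the 8 libraries *TOPP3* and *TOPP7* had a Pearson correlation of log2 CPM of 0.95, *TOPP1* and *TOPP7* of 0.90 and *TOPP1* and *TOPP3* of 0.83, where the points share these sets. Outside *TT2* OE there are 5 libraries, and set 3 is 1 library, Col-0 replicate 3. In these, AT2G39850 went the other way, at a mean of 8.68 CPM in set 1, 25.4 in set 2 and 15.1 in that library. The range was 2.93-fold, while *TOPP4* was at 22.1, 18.6 and 15.4 CPM. The 2 genes of the locus were both low in *TT2* OE, but over these 5 libraries their set values ran in different orders. Organ markers differed between the sets as well: the root aquaporin gene *TIP2;3* was at 63.6 to 72.8 CPM in set 1, 39.3 to 56.2 in set 2 and 73.4 to 81.8 in set 3, and *RBCS1A* was at 9224 to 10070, 12950 to 16460 and 8951 to 10370 CPM. The root markers did not move as one. *COBL9*, a gene of root hair cells, was highest in set 2, at 6.47 to 6.83, 10.7 to 10.9 and 5.69 to 8.25 CPM. *CASP1* was at 28.2 to 38.3, 31.9 to 37.8 and 28.7 to 31.8 CPM. For that gene set 1 overlapped both other sets, and set 3 lay just below set 2. The part of these markers in the differences of the *TOPP* genes was not tested. Since all genes entered the clustering, the set values are given as a description.

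No gene tested on either side of the locus passed the test. Of the 15 genes of the table on each side, 23 of 30 could be tested, 6 had no count in any library and 1 had too few. In *TT2* OE against Col-0, 0 of 23 were called by edgeR in either model, and DESeq2 and the likelihood ratio test called 0. Unadjusted p-values under 0.05 were found for 0 with genotype alone and 3 with the set term, beside 1.51% and 12.8% of all genes, so the latter count is near the background. The log2 ratios with the set term ran from -0.39 to 0.52, with a median of -0.05 beside 0.00 over all genes. In *MYB5* OE 0 of 23 were called as well, with 0 and 2 unadjusted p-values under 0.05, beside 1.04% and 8.26% of all genes.

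On the left of *TOPP4*, *DAR2* (AT2G39830), whose protein is related to the peptidase DA1 that limits organ size, ends 3065 bases before *TOPP4*. It was at 3.91 CPM on average in Col-0 and 3.67 CPM in *TT2* OE, with a log2 ratio of -0.11 (95% interval -0.52 to 0.30) in the set-term model. Next came *eIF6B* (AT2G39820), at 0.0509 and 0.119 CPM and too low to test, then *HOS1* (AT2G39810), an E3 ligase of cold signalling, at 40.4 and 40.5 CPM, and AT2G39805, a Yip1-family membrane protein gene, at 20.7 and 20.9 CPM. On the right, AT2G39851, annotated as a proteinase inhibitor propeptide gene, starts 265 bases after AT2G39850 and had no count in any library. AT2G39855 was at 0.453 CPM in Col-0 and 0.361 CPM in *TT2* OE (log2 ratio -0.26, -1.21 to 0.69), whereas AT2G39860 and AT2G39865 had no count. The first well-expressed gene on that side was AT2G39870, of unknown function, at 52.0 and 62.7 CPM. Its log2 ratio was 0.25 (0.04 to 0.47, adjusted p 0.306 in edgeR). In *MYB5* OE it was at 67.8 CPM, with a log2 ratio of 0.26 (0.005 to 0.51, adjusted p 0.601 in edgeR) with the set term. From the start of *TOPP4* to the end of AT2G39850 the affected stretch spans 7038 bases, and the nearest genes with a fitted ratio beyond it were *DAR2* on the left and AT2G39855 on the right. The latter starts 3407 bases after AT2G39850 ends and rests on 154 counts over the 8 libraries, and its interval covers 0.

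**Figure D4:**
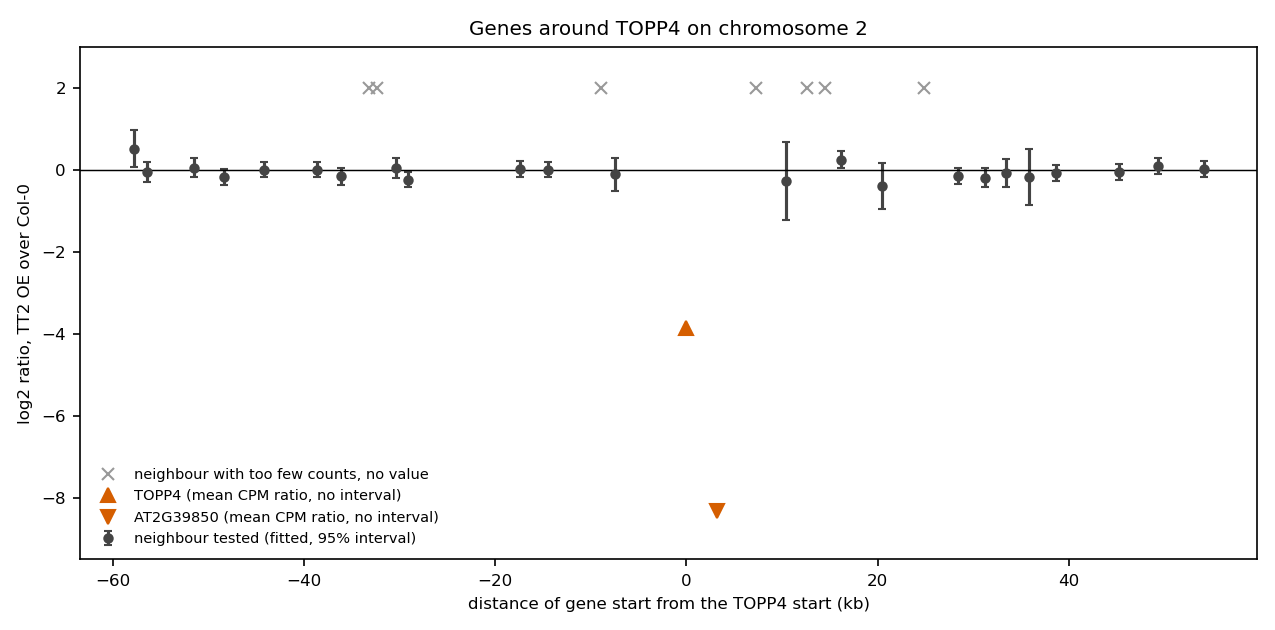
Log2 ratio of *TT2* OE over Col-0 (vertical axis) against distance of each gene start from the *TOPP4* start in kb (horizontal axis), for 15 genes on each side. Grey points are fitted ratios with 95% intervals from the set-term model, between -0.39 and 0.52; orange triangles are ratios of mean CPM for *TOPP4* and AT2G39850, and crosses mark 7 genes with too few counts for a value.

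Genes related to the members by function or family were described from 4 lists. These were PP1 inhibitors and known TOPP4 substrates, other PPP phosphatases, gibberellin synthesis and signalling, and other subtilisin-like proteases. Of 9 genes for PP1 inhibitors and known substrates of TOPP4, all were tested and 0 were called in *TT2* OE in either model, with 0 unadjusted p-values under 0.05 and median log2 ratios of -0.08 with genotype alone and -0.07 with the set term (all genes 0.00). These values are transcript levels, and the amount and phosphorylation of the proteins were not measured. The DELLA gene *RGA1* had a log2 ratio of -0.14 (95% interval -0.36 to 0.08) in the set-term model. For the inhibitor genes *INH3* and *I-2* it was -0.17 (-0.49 to 0.16) and 0.15 (-0.06 to 0.37). Of 18 genes for other PPP phosphatases, which include the PP2A, PP4, PP6, PP5, PP7, BSU1-type and bacterial-like catalytic subunits, 0 were called and 0 had an unadjusted p under 0.05 in either model, with a median of 0.02 with the set term. Over all genes, the share with an unadjusted p under 0.05 was 1.51% with genotype alone and 12.8% with the set term. The shares called were 0.00981% and 1.41%. The PP2A gene *PP2A-1* had a log2 ratio of 0.17 (-0.03 to 0.36). *SLP2*, of the bacterial-like group, had one of -0.09 (-0.34 to 0.16). *BSU1*, a phosphatase gene of brassinosteroid signalling, was nearly silent at 0.0542 to 0.672 CPM, and its ratio of -0.81 (-1.99 to 0.36) is loosely bounded.

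Among 26 genes of gibberellin synthesis and signalling, 24 were tested. With genotype alone 0 were called in *TT2* OE, and 1 had an unadjusted p under 0.05. In the set-term model 1 rose and 1 fell, where 1.41% of all genes were called, and the median log2 ratio was 0.06. Unadjusted p-values under 0.05 were found for 3 of the 24, close to the share of 12.8% over all genes. Both called genes encode small gibberellin-responsive peptides of the GASA family. *GASA6* was at 76.8, 146 and 318 CPM in Col-0, 39.8 and 118 CPM in *MYB5* OE, and 45.2, 94.3 and 190 CPM in *TT2* OE. It was lower than Col-0 in every set, by a log2 ratio of -0.72 (SE 0.11, adjusted p 0.00922 with the set term and 1.0 with genotype alone, edgeR). *GASA1* was at 307, 234 and 232 CPM in Col-0, 445 and 250 CPM in *MYB5* OE, and 439, 290 and 446 CPM in *TT2* OE, a log2 ratio of 0.59 (SE 0.12, adjusted p 0.0385 and 1.0). Without Col-0 replicate 1 the adjusted p with the set term was 0.0803 for *GASA6* and 0.178 for *GASA1*, and without *TT2* OE replicate 2 it was 0.136 and 0.156. *GASA1* also lost the call without *TT2* OE replicate 1 (0.0626), without Col-0 replicate 3 (0.132) and without *TT2* OE replicate 3 (0.13). In *MYB5* OE 0 of 24 were called in either model, with log2 ratios in the set-term model of -0.62 for *GASA6* (adjusted p 0.106) and 0.40 for *GASA1* (0.422).

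No other protease gene of the family to which AT2G39850 belongs was called. Of 54 other subtilisin-like protease genes, 28 were tested and 0 were called in *TT2* OE in either model, with 0 and 3 unadjusted p-values under 0.05, again near the share over all genes, and medians of -0.08 and -0.09. The largest distance from 0 was that of AT4G10510 (-0.83, -1.75 to 0.09, with the set term), which was at 0.19 to 1.12 CPM over the 8 libraries. *XSP1*, a protease gene of xylem, had a log2 ratio of -0.23 (-0.45 to -0.01; adjusted p 0.373 in edgeR), and AT4G30020 one of -0.28 (-0.47 to -0.09; adjusted p 0.17).

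The genes whose log2 CPM was most like that of *TOPP4* over the 8 libraries, apart from AT2G39850 (Pearson r 0.96), were *DWA2* (0.98), *CYP709B2* (0.97), AT1G29100 (0.97), *GulLO6* (0.96) and *EXPA2* (0.95). These were picked from 20382 genes for their likeness, so the values are a description. The 8 libraries include those of *TT2* OE, for whose low values *TOPP4* and AT2G39850 were chosen. The r of AT2G39850 therefore follows from that choice, and that of the others in part from low values in *TT2* OE. *EXPA2*, for an expansin that loosens cell walls, was at 13.4, 10.9 and 4.47 CPM in Col-0, 17.2 and 4.70 CPM in *MYB5* OE, and 1.46, 0.767 and 0.867 CPM in *TT2* OE. *CYP709B2*, for a cytochrome P450, was at 9.57, 12.03 and 6.97 CPM in Col-0, 12.3 and 5.84 CPM in *MYB5* OE, and 2.71, 1.56 and 1.71 CPM in *TT2* OE. In AT1G29100, for a heavy-metal-domain protein, the Col-0 libraries were at 2.58, 2.12 and 1.90 CPM. Those of *MYB5* OE were at 2.63 and 0.996 CPM and those of *TT2* OE at 0.28, 0.238 and 0.163 CPM. *DWA2*, for a substrate receptor of an E3 ligase in abscisic acid signalling, had a high correlation but a small range, from 5.53 CPM in *TT2* OE to 7.76 CPM in Col-0. *GulLO6*, for a member of the gulonolactone oxidase family, ranged from 1.17 to 1.92 CPM. None of the 5 is among the 30 neighbours of the locus.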

How the data were processed

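The authors extracted RNA from whole seedlings, made NEBNext Ultra Directional libraries, sequenced them as paired reads on an Illumina NextSeq, and mapped and counted them with CLC Genomics Workbench on TAIR10; strand and multi-mapping settings are not given in the sources used here. The deposited counts of reads per gene of 8 libraries were used. Left out were 28 further columns: 24 with normalized values, and 4 from 1 library without a matching sample. Of 28496 genes, 98.26% are in the TAIR10.1 annotation.

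Counts were filtered (filterByExpr by genotype), scaled by TMM and fitted by quasi-likelihood (edgeR 4.0.16, R 4.3.3) on all 8 libraries with genotype alone; calls have a Benjamini-Hochberg adjusted p under 0.05 over all 20382 genes tested. Alternatives were a term for 3 sets of libraries from complete-linkage clustering, DESeq2 1.42.0, relative log expression factors, no filter, a likelihood ratio test, only the 2 genotypes compared, and leaving out each library. The scripts were tested on simulated data. The common dispersion was 0.13 with genotype alone and 0.0107 with the set term. No pair of libraries agreed within sampling noise (lowest mean chi-square per gene 16.3). The reads carry no molecular identifiers. The exact intervals of summed counts and the floor of 3 counts describe counting error only. By contrast, the edgeR intervals of log2 ratios also hold the spread between libraries.

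Members and lists were chosen with earlier results of these data known. Named genes are the 10 members, the transgenes, the 4 nearest neighbours on each side of the locus, the 5 tested genes with the highest Pearson correlation of log2 CPM (prior count 2) with *TOPP4*, subtilisin-like genes within 10 loci of a *TOPP* gene, and of each list or group the genes called in either model, otherwise up to 3 with the smallest p in *TT2* OE. Sequences were read from RefSeq's TAIR10.1 with Python 3.11.15 and aligned with Biopython 1.88.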

Additional observations from a re-analysis of the deposited data

How the results depend on the processing

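The counts of called *TOPP* genes, neighbours, other PPP phosphatases, *TOPP4* targets and inhibitors, and subtilisin-like proteases were 0 under all alternatives run. The set term moved the count of gibberellin genes in *TT2* OE from 0 to 2. Leaving out a library gave 0 in both comparisons with genotype alone, and, with the set term added, 0 to 2 in *TT2* OE and 0 to 1 in *MYB5* OE. The *TOPP4* residue in *TT2* OE stayed within 5.70% to 7.83% of Col-0 and that of AT2G39850 within 0.143% to 0.42% without any 1 library. None of the 26 log2 ratios that were tested was called in any of 22 alternatives (lowest adjusted p 0.294), but ratios near 0 changed sign; the cause was not tested. In *MYB5* OE the set term gave 0.0646 for *TOPP1*, -0.0757 for *TOPP4* and -0.0465 for *TOPP8*, and AT2G39850 was at 5.66e-05 with relative log expression factors and 0.000221 with DESeq2. Against *MYB5* OE the set term gave -0.0304 for *TOPP3*, and *TOPP5* was at -0.00234 without the filter and -0.00701 with only 2 genotypes. Leaving out a library gave, for *TT2* OE against Col-0, -0.0592 to 0.0481 for *TOPP2*, -0.41 to 0.18 for *TOPP3*, -0.0711 to 0.35 for *TOPP7*, -0.24 to 0.0464 for *TOPP8* and -0.16 to 0.028 for *TOPP9*. For *MYB5* OE against Col-0 it gave -0.35 to 0.25 for *TOPP1*, -0.11 to 0.0293 for *TOPP2*, -0.92 to 0.23 for *TOPP3*, -0.25 to 0.30 for *TOPP4*, -0.0242 to 0.63 for *TOPP6*, -0.78 to 0.28 for *TOPP7*, -0.28 to 0.28 for *TOPP8*, -0.19 to 0.15 for *TOPP9* and -1.12 to 0.60 for AT2G39850. For *TT2* OE against *MYB5* OE it gave -0.095 to 0.49 for *TOPP1*, -0.0383 to 0.10 for *TOPP2*, -0.31 to 0.86 for *TOPP3*, -0.0631 to 0.0745 for *TOPP5*, -0.18 to 0.48 for *TOPP6*, -0.11 to 0.95 for *TOPP7*, -0.38 to 0.17 for *TOPP8* and -0.23 to 0.0997 for *TOPP9*. Where *MYB5* OE kept 1 library, that library was assumed to vary like the others. Genotype alone leaves wide intervals, so differences of the size of the intervals given were not detectable. From the labels, which carry no replicate numbers, libraries cannot be paired. No paired analysis was possible because of this, except through the set term, which acts as a block whose members came from clustering these data.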

Other observations

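Subtilisin-like genes also lie within 10 loci of *TOPP2* (6 genes) and *TOPP5* (2 genes), and neither of the 2 among them that were tested was called in *TT2* OE. Near *TOPP2*, *SBT4.12* (AT5G59090) was at 57.7, 59.4 and 67.6 CPM in Col-0 and 70.7, 61.7 and 64.0 CPM in *TT2* OE, with a log2 ratio of 0.09 (95% interval -0.11 to 0.29) in the set-term model. AT5G59130 was at 35.3, 30.7 and 7.80 CPM in Col-0 and 34.0, 26.6 and 6.28 CPM in *TT2* OE, so that both libraries of set 3 were far below the other 6, with a log2 ratio between genotypes of -0.18 (-0.43 to 0.07). AT5G59100 had 3 counts over all libraries, and the remaining 3 near *TOPP2* and both near *TOPP5* had 0.

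The G-box, CACGTG, which many light-regulated and stress-regulated promoters carry, was found at 2 places in the 250 bases before *TOPP7* and in no other window of the family or of AT2G39850, where 6.58% of 26697 windows held it.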
